A study of Homo sapiens with 9 samples.

Results

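The genes described here are 8 genes of cholesterol synthesis, out of 19748 protein-coding genes in the annotation. They are the enzyme genes HMGCS1, IDI1, FDPS, FDFT1, SQLE and LSS, and the regulator genes INSIG1 and SREBF2. They were chosen by name, as members of the pathway. All RNA polymerase II (RNAPII) peaks that overlapped a gene, widened by 500 bp on both sides, were assigned to it (GENCODE, GRCh37). A peak that came within 500 bp of where any protein-coding transcript of the gene begins (its transcription start site, TSS) was taken as a TSS peak, and any other as a gene-body peak. The 8 genes held 97 of the 142069 peaks in 5 lists. RNAPII occupancy had been measured by chromatin immunoprecipitation and sequencing (ChIP-seq) to learn how the polymerase is distributed when cells have too little or too much of RECQL5, an RNAPII-binding member of the RECQ helicases.

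HEK293, a line from human embryonic kidney, was used throughout. In the hairpin arm the cells carried a lentivirus with a control shRNA, with RECQL5 shRNA 5 or with RECQL5 shRNA 7, called shRNA5 and shRNA7. In the doxycycline arm they were HEK293 T-REx cells with the plasmid pcDNA4/TO-RECQL5 for the full-length protein, which doxycycline switches on, grown at 0.0 or 1.0 ng/ml of the drug. Both doxycycline lists thus come from cells with the plasmid, and differ in the drug as well as in RECQL5. Each of the 3 hairpins had an IgG library as background, and the labels give 1 untreated IgG library as the control in peak calling for both doxycycline lists. Every group was 1 library. No test between conditions was possible. All 95% intervals cover counting error only, not the spread between cultures. Reads are not independent molecules, and neighbouring peaks in a gene are not independent either.

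Cholesterol is built from acetyl-CoA through mevalonate, the isoprenoid diphosphates, squalene and lanosterol. The genes of this pathway are switched on together by SREBP-2, the product of SREBF2, a transcription factor that is held as a precursor in the membrane of the endoplasmic reticulum. When sterols are plentiful, INSIG1 retains the precursor there with its escort SCAP, and when they are scarce it travels to the Golgi and is cut by the proteases encoded by MBTPS1 and MBTPS2, so that its active part reaches the nucleus. There it binds sterol regulatory elements, usually beside sites for NF-Y and Sp1.

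Promoter sequences are shown because these short motifs are the known link between the genes. They are given for 6 genes, all with TSS peaks in most lists. Those of SQLE and FDFT1 are not printed, although FDFT1 also had TSS peaks in most lists. They were read from GRCh37 upstream of the TSS of the longest protein-coding transcript, in the direction of transcription. Capitals mark the letters of a sterol regulatory element (TCACNCCAC), NF-Y site (CCAAT, or ATTGG on the other strand) or Sp1 site (GGGCGG, or CCGCCC on the other strand). The stretches are HMGCS1 chr5:43313615-43313714 (minus strand), IDI1 chr10:1094940-1094969 (minus), FDPS chr1:155278339-155278538 (plus), LSS chr21:47648739-47648936 (minus), INSIG1 chr7:155089286-155089485 (plus) and SREBF2 chr22:42228909-42229108 (plus).
HMGCS1: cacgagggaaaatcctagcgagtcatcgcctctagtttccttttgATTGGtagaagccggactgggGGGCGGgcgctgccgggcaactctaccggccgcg
IDI1: gcgtacgggcgCCAATTGGccgggcgatgt
FDPS: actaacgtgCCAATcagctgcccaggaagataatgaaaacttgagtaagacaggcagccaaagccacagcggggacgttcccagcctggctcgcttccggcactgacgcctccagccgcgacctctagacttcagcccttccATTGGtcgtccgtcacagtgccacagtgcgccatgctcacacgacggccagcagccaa
LSS: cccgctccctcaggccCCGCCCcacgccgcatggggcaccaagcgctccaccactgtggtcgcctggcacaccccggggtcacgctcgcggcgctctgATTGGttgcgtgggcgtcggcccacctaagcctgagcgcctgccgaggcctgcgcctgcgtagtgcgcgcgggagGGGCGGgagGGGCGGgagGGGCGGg
INSIG1: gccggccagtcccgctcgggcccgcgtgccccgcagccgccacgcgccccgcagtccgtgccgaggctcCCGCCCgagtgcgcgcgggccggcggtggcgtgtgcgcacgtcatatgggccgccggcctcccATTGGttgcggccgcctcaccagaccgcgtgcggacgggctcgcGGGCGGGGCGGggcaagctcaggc
SREBF2: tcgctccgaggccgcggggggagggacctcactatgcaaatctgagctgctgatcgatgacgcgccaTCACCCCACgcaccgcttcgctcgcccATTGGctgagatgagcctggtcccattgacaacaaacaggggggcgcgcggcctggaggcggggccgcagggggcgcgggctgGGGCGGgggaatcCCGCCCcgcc

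The sterol element was found in 1 of the 8 promoters, that of SREBF2, where it starts 133 bases before the TSS, next to an NF-Y motif at 106 bases. Over the 250 bases before the TSS, 0.932% of 19744 promoters held these letters. The NF-Y letters were present in all 8 of the 8, against 33.2% of all promoters, and the Sp1 letters in 6 of 8, against 54.1%. FDPS and FDFT1 were without the Sp1 letters. The FDFT1 window lies at the first TSS of that gene, where no list had a peak, and it is counted among the 8. In IDI1 the letters CCAATTGG hold the NF-Y motif on both strands, with overlap. Among 14 other synthesis genes, 0 had the sterol element, 11 the NF-Y letters and 13 the Sp1 letters. Among 6 further sterol regulators, 0 had the NF-Y letters and 3 the Sp1 letters. A match is a string of letters only. GC content had a median of 69.6% over the 8 promoters (47.2% in FDFT1, then 55.6% in FDPS, to 80.4% in INSIG1) and 61.6% over all promoters.

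Levels differed between lists over all genes, and the members' values need to be read against this. The control shRNA list had 5287 peaks and the shRNA5 and shRNA7 lists 23698 and 32124. Without and with doxycycline there were 47060 and 33900. The weakest peak held 35, 27, 26, 9 and 11 tags, in that order, so a missing peak in the control shRNA list does not mean that a gene was free of tags. Tags in peaks summed to 842310, 3778665, 6698771, 1449163 and 1539844. Library totals are not in the lists, so tags could not be scaled by depth. The study's methods describe read numbers as alike among the libraries compared within an arm. The same methods describe longer peak lists for the hairpin arm than those used here, and the control shRNA list differs by the largest factor. Peaks missing with the control shRNA, folds in gene-body peaks and overlaps with that list rest on these shorter lists, and the part of this in the results was not tested. Over RECQL5 itself (named for its role in the design), the control and shRNA5 lists had 0 peaks, shRNA7 had 280 tags in 1 TSS peak, and the lists without and with doxycycline 983 and 1290 tags in 3 TSS peaks each. Gene-body peaks over RECQL5 held 468 tags upon shRNA7 (1 peak), and 188 and 333 tags without and with doxycycline (5 peaks each). In the doxycycline arm the cells also carry RECQL5 on the plasmid, and tags from the plasmid and from the gene cannot be told apart. RNAPII peaks do not measure what a hairpin does to the mRNA.

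A TSS peak was present at 2 of the 8 genes in the control shRNA list, 7 upon shRNA5 and 8 upon shRNA7, and at 7 both without and with doxycycline. Of all protein-coding genes, 17.3%, 44.6%, 53.0%, 57.1% and 48.4% had one in these lists. Of the 12166 genes with a TSS peak in at least 1 list, the shares were 28.1%, 72.4%, 86.0%, 92.7% and 78.5%. Against that background the members' counts of 2, 7, 8, 7 and 7 were near those of the other genes with RNAPII at the promoter. HMGCS1 and FDPS had a TSS peak in all 5 lists, as did 25.8% of the 12166 genes. INSIG1, IDI1, FDFT1, LSS and SREBF2 lacked it in the control shRNA list only, a pattern of 36.1%. SQLE had it upon shRNA7 only, a pattern of 3.51%.

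**Figure D1:**
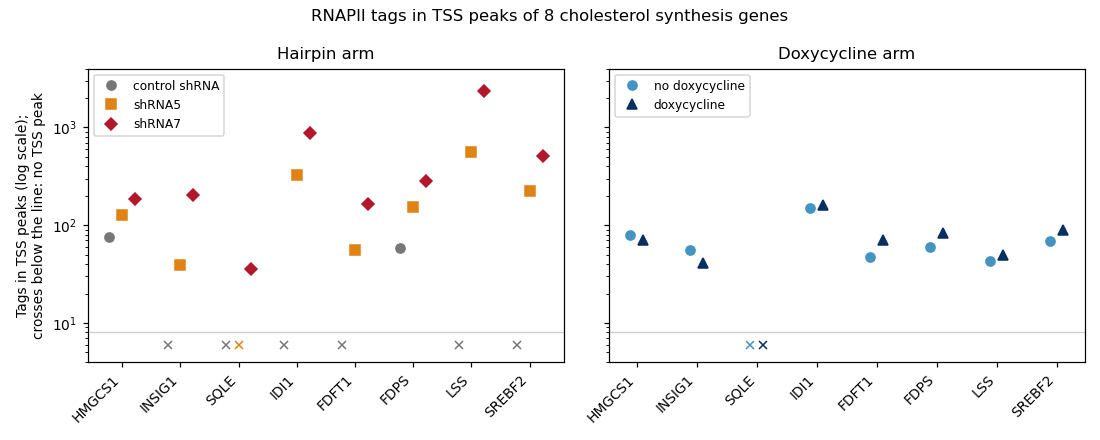
Tags in TSS peaks (y axis, log scale) of each gene (x axis) in the hairpin arm (left) and the doxycycline arm (right); each point is 1 library and a cross marks a list without a TSS peak. HMGCS1 and FDPS are the only genes with a control shRNA point, at 75 and 58 tags; values are to be compared within a gene, since peak lengths differ.

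HMGCS1 encodes the cytosolic HMG-CoA synthase, which joins acetyl-CoA to acetoacetyl-CoA early in the pathway. The gene lies at chr5:43287572-43313614 on the minus strand (ENSG00000112972). Its TSS peak held 75 tags with the control shRNA, 127 upon shRNA5 and 185 upon shRNA7, and 80 without and 71 with doxycycline. The summit fell in the first exon in all 5 lists, at −23 to 56 bp from the nearest annotated TSS. Relative to the control shRNA the tags were 1.69 times as many upon shRNA5 (1.26 to 2.28) and 2.47 times upon shRNA7 (1.88 to 3.27). Both ratios were lower than the medians over all genes, 2.14 and 3.73, and 25.7% and 24.3% of genes lay lower still. Doxycycline gave a ratio of 0.887 (0.636 to 1.24), an interval that includes 1.

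Beyond its TSS, HMGCS1 had a peak across the 3′ end in each hairpin list. It spanned chr5:43286359-43291128 with the control shRNA (229 tags), chr5:43283001-43290383 upon shRNA5 (353 tags) and chr5:43283267-43290728 upon shRNA7 (462 tags). The summits lay past the annotated end of the gene, by 355, 699 and 1244 bp. A lncRNA gene, ENSG00000261604, overlaps this stretch, and strand was not recorded, so its RNAPII and that of HMGCS1 cannot be told apart. Neither doxycycline list had a peak at the 3′ end.

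A second site lay in introns near the 5′ end of HMGCS1. There shRNA5 gave a peak of 113 tags at chr5:43308929-43311358, shRNA7 one of 294 tags at chr5:43305526-43311299, and doxycycline one of 26 tags at chr5:43309775-43310642, while the control shRNA and no doxycycline lists had none. Further intronic peaks in the middle of the gene held 50 and 54 tags upon shRNA7 and 47 and 16 with doxycycline, and 1 more of 18 tags lay nearer the 5′ end with doxycycline. HMGCS1 was thereby the 1 member with more gene-body peaks with doxycycline (4) than without (0).

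IDI1 encodes isopentenyl-diphosphate isomerase, which interconverts the 5-carbon building blocks of the isoprenoids. It lies at chr10:1085092-1095059 on the minus strand (ENSG00000067064), head to head with WDR37, and every TSS peak of IDI1 also touched the TSS window of WDR37. The peak held 328 tags upon shRNA5, 875 upon shRNA7, and 151 without and 160 with doxycycline, and there was none with the control shRNA. Upon shRNA7 it was 11308 bp long, with 19.9% of its length in the widened gene, and upon shRNA5 5527 bp, with 36.7%. The rest lay mostly on the WDR37 side, and the tags of a peak cannot be divided between the genes. The doxycycline ratio was 1.06 (0.843 to 1.33).

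The body of IDI1 was covered by RNAPII peaks in 4 lists. Upon shRNA5 these were a peak of 180 tags at chr10:1083641-1087276, around the last exon, and an intronic one of 138 tags at chr10:1089892-1092698. Upon shRNA7 a single peak of 11360 bp and 691 tags ran from chr10:1081413 to 1092772, with its summit 838 bp past the gene end. Without doxycycline the gene body held 7 short peaks of 9 to 19 tags, 89 in all, of which 6 lay within that stretch. With doxycycline it held 5 peaks of 14 to 61 tags, 139 in all. From shRNA5 to shRNA7, and from no doxycycline to doxycycline, IDI1 thus had fewer peaks and more tags in them. The lncRNA gene IDI2-AS1 overlaps most of these peaks, and its RNAPII cannot be told apart from that of IDI1.

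FDPS encodes farnesyl diphosphate synthase, the branch point to sterols, dolichol and prenylated proteins. It lies at chr1:155278539-155290457 on the plus strand (ENSG00000160752). Tags in its TSS peak numbered 58 with the control shRNA, 152 upon shRNA5 and 283 upon shRNA7, and 60 without and 83 with doxycycline. The summit fell in the first exon each time. The ratios were 2.62 (1.92 to 3.61) upon shRNA5 and 4.88 (3.67 to 6.59) upon shRNA7, with 64.4% and 62.0% of genes lower. With doxycycline the ratio was 1.38 (0.981 to 1.96), with 83.0% of genes lower.

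FDPS had 1 gene-body peak in each hairpin list, in its 3′ part with the control shRNA and much longer upon shRNA7. With the control shRNA it covered 2230 bp and held 99 tags (chr1:155287061-155289290), upon shRNA5 5779 bp and 292 tags (chr1:155286221-155291999), and upon shRNA7 11716 bp and 1101 tags (chr1:155280424-155292139). The shRNA5 and shRNA7 peaks also covered the TSS of RUSC1, the next gene, although 82.0% and 89.9% of their length lay in the widened FDPS span. The count of gene-body peaks, 1 in each list, does not show this lengthening. Without doxycycline there were 3 peaks, of 10, 14 and 52 tags, the last at the 3′ end (chr1:155288817-155290623), and with doxycycline there was none assigned to the gene. The lncRNA gene RUSC1-AS1 overlaps the gene-body peaks of the hairpin lists and the one of 52 tags. Its RNAPII cannot be told apart from that of FDPS.

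FDFT1 encodes squalene synthase, the first enzyme committed to sterols. It lies at chr8:11653082-11696904 on the plus strand (ENSG00000079459), with 11 annotated protein-coding TSSs. No list had a peak at the first of these. The TSS peaks all lay at internal TSSs, some 6818 to 7205 bp and 12573 to 12704 bp after it. The more distal site had a peak in 4 lists, of 56 tags upon shRNA5, 119 upon shRNA7, and 31 without and 55 with doxycycline. The nearer site had 45 tags upon shRNA7, and 16 without and 15 with doxycycline, and the lncRNA gene ENSG00000255046 overlaps these peaks. Both sites together gave a doxycycline ratio of 1.49 (1.01 to 2.20), the highest among the members, with 87.2% of genes lower. Gene-body peaks held 59 tags upon shRNA7, 9 and 15 without doxycycline and 13 with it, at places that did not overlap one another.

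SQLE encodes squalene monooxygenase, a rate-limiting oxidation step after squalene. It lies at chr8:126010739-126034525 on the plus strand (ENSG00000104549). It had peaks upon shRNA7 only, a TSS peak of 36 tags at chr8:126010353-126011343 and an intronic peak of 42 tags at chr8:126014866-126016074. Their false discovery rates (FDR), as the authors' peak caller estimated them, were 10.2% and 8.33%, and SQLE had no peak when the FDR was held to 5%. At 36.3 tags per kb the TSS peak was among the least dense of its list, with 0.793% of genes lower. The lncRNA gene SQLE-DT overlaps that peak.

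LSS encodes lanosterol synthase, which folds the squalene epoxide into the first sterol. It lies at chr21:47608055-47648738 on the minus strand (ENSG00000160285). Its TSS tags numbered 556 upon shRNA5 and 2381 upon shRNA7, and 43 without and 50 with doxycycline, and the control shRNA list had no TSS peak. The peaks behind the values for shRNA5 and shRNA7 lay mostly outside LSS. The shRNA5 peak was 8810 bp long with 13.1% in the widened gene, and it reached into MCM3AP. Its summit lay at −5846 bp from the TSS. Upon shRNA7, 2321 tags came from a peak of 28075 bp (chr21:47649054-47677128), of which 0.659% touched LSS, whereas a separate peak on the TSS itself held 60 tags with an FDR of 16.0%.

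The stretch of that long peak upstream of LSS was occupied in every list. It held 4 peaks and 361 tags with the control shRNA, 4 and 1460 upon shRNA5, 15 and 401 without doxycycline, and 16 and 416 with it. The lncRNA gene MCM3AP-AS1 overlaps it as well. When a TSS peak was required to have its summit in the window, LSS lost its TSS peak upon shRNA5 and 6 members kept one. At its 3′ end LSS had a peak of 81 tags upon shRNA5 (chr21:47607814-47609568) and 99 upon shRNA7 (chr21:47606871-47608646), at the same place, and none there in the other lists. The lncRNA gene ENSG00000228404 overlaps both of these peaks. The doxycycline ratio at the TSS was 1.16 (0.758 to 1.79).

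INSIG1 encodes the sterol-dependent anchor of the SREBP precursor, and is itself a target of SREBP. It lies at chr7:155089486-155101945 on the plus strand (ENSG00000186480). No peak was found with the control shRNA. TSS peaks held 39 tags upon shRNA5, 206 upon shRNA7, and 56 without and 41 with doxycycline. All 4 summits lay upstream, at −169 to −136 bp from the TSS, within the printed promoter, where the lncRNA gene INSIG1-DT also overlaps the peaks. The doxycycline ratio was 0.732 (0.477 to 1.12), the lowest among the members, with 21.8% of genes lower. A peak at the 3′ end appeared upon shRNA7 (130 tags, summit 305 bp past the gene end) and an exonic peak of 9 tags without doxycycline.

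SREBF2 encodes the precursor of SREBP-2. It is the longest of the 8 genes at 74.2 kb, at chr22:42229109-42303310 on the plus strand (ENSG00000198911). Its TSS peak held 224 tags upon shRNA5, 512 upon shRNA7, and 69 without and 90 with doxycycline, and it had none with the control shRNA. The summits lay upstream, at −365, −98, −447 and −17 bp from the TSS, and the peaks reached into CCDC134. The lncRNA gene SREBF2-AS1 overlaps all of these TSS peaks. The doxycycline ratio was 1.30 (0.943 to 1.81).

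SREBF2 also showed the widest range of gene-body peaks. The control shRNA list had 1, at the 3′ end (chr22:42302287-42303961, 59 tags, summit 335 bp past the end). Upon shRNA5 there were 4, of 65 and 85 tags in an intron near the 5′ end, 45 tags further inside and 45 tags in the last part of the gene. Upon shRNA7 there were 3, of 260 tags over the same 5′ intronic stretch (chr22:42231379-42236280), 62 tags just beyond it and 691 tags over the 3′ end (chr22:42295430-42305738, 10309 bp, reaching SHISA8). Without doxycycline there were 11 peaks of 9 to 14 tags, 4 of them in that 5′ stretch, and with doxycycline there was none. SREBF2 thus had 11 of the 26 gene-body peaks without doxycycline, all close to the lowest tag number in that list.

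**Figure D2:**
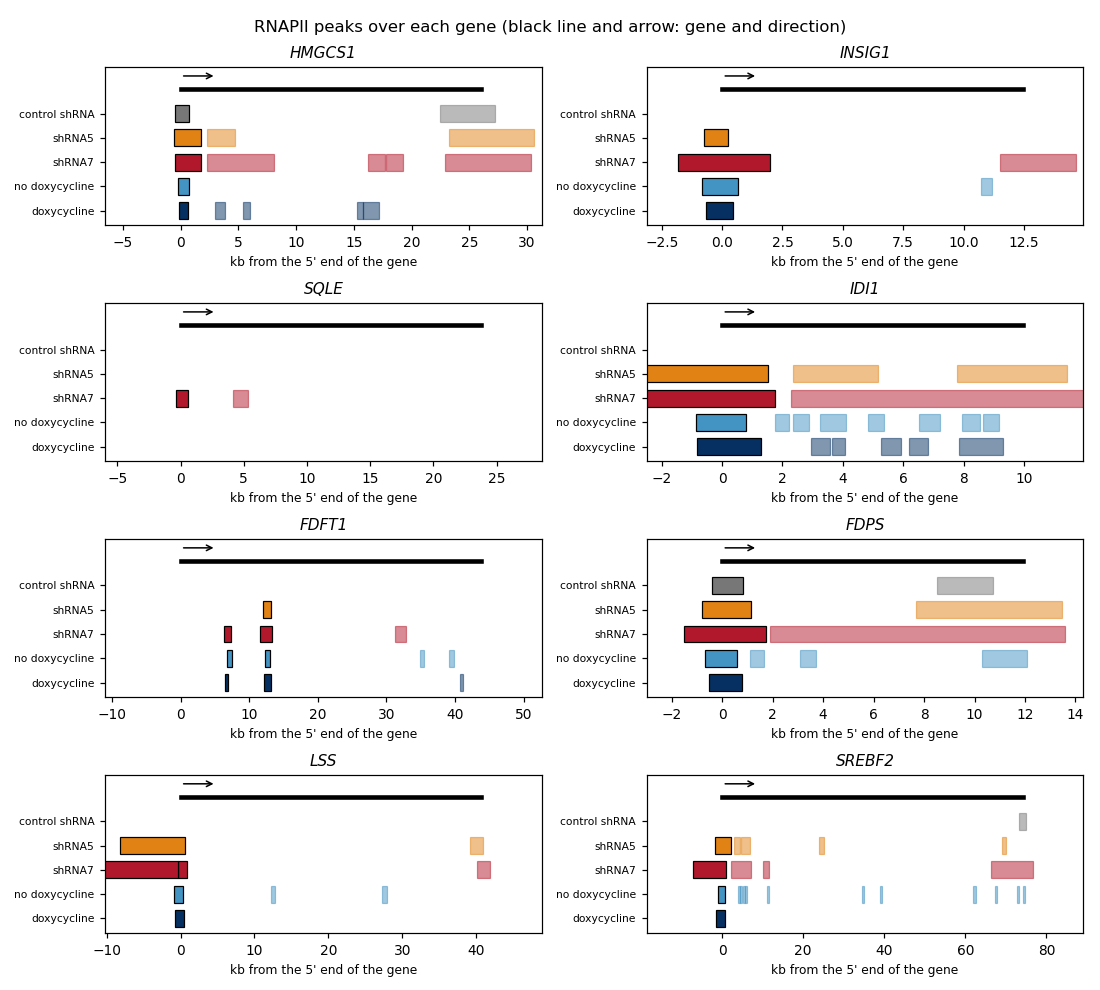
Peaks along each gene by list, as distance from the 5′ end of the gene in kb; dark bars with a black edge are TSS peaks, pale bars are gene-body peaks, and the black line is the annotated gene. HMGCS1 shows 3′-end peaks in the 3 hairpin lists, FDFT1 shows TSS peaks at internal sites, and the bars of IDI1 (shRNA5 and shRNA7) and LSS (shRNA7) run past the plotted window.

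Between genes, TSS peaks can be compared as tags per kb of peak. Without doxycycline IDI1 (90.0 tags per kb) and HMGCS1 (83.5) were followed by FDPS (47.2), SREBF2 (39.6), INSIG1 (37.3), LSS (34.0) and FDFT1 (33.7). Of all genes with a TSS peak in that list, 98.0% were less dense than IDI1 and 97.0% less dense than HMGCS1. The IDI1 peak in either doxycycline list also touched the TSS window of WDR37, and its tags cannot be divided between the genes. The gap below HMGCS1 was the only one of 6 between neighbours at which the exact Poisson intervals did not overlap (66.2 to 104 for HMGCS1, 36.0 to 60.8 for FDPS). With doxycycline the order was HMGCS1 (90.6), IDI1 (75.7), FDPS (62.6), FDFT1 (49.5), LSS (41.5), SREBF2 (40.9) and INSIG1 (36.3), with overlap between all neighbours.

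In the hairpin arm FDPS was the densest upon both RECQL5 hairpins. Upon shRNA5 it had 78.4 tags per kb, followed by LSS (63.1), IDI1 (59.3), SREBF2 (55.4), HMGCS1 (55.3), FDFT1 (50.4) and INSIG1 (38.6), again with overlap between all neighbours. Upon shRNA7 FDPS (87.0), HMGCS1 (81.7), LSS (81.4) and IDI1 (77.4) lay above SREBF2 (63.6), FDFT1 (56.9), INSIG1 (53.7) and SQLE (36.3). The gap between IDI1 and SREBF2 was the 1 of 7 with separate intervals. Upon shRNA5 and shRNA7 the places of LSS and IDI1 rest on peaks with most of their length outside the gene, as does that of SREBF2 upon shRNA7 (17.8% inside). The separate peak on the LSS TSS upon shRNA7 had 50.5 tags per kb, below INSIG1. With the control shRNA HMGCS1 had 60.1 and FDPS 47.3, with overlap. INSIG1 was the least dense of the 7 genes with a TSS peak upon shRNA5 and with doxycycline, above 4.10% and 27.3% of genes.

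By the tag numbers of TSS peaks in the 5 lists, the genes most like HMGCS1 were GTPBP10 and ZNF714, at Euclidean distances of 0.21 and 0.23 on the log2 scale among 3138 genes with a TSS peak in every list. GTPBP10 had 70, 125, 177, 79 and 80 tags. For FDPS they were MDH1B and FASTKD2, both at 0.35 and with the same tags in every list (70, 142, 317, 56 and 82). A peak may be assigned to several genes, so MDH1B and FASTKD2 may share the same peaks, which was not tested.

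Knockdown with either hairpin was compared with the control shRNA to ask whether RNAPII at these promoters followed RECQL5 loss. Both comparisons use the same control library. Only HMGCS1 and FDPS had a TSS peak in the lists compared. Their median ratio was 2.16 upon shRNA5 (HMGCS1 at 1.69, FDPS at 2.62) and 3.67 upon shRNA7 (HMGCS1 at 2.47, FDPS at 4.88). Over all genes the medians were 2.14 (log2 1.10, 3394 genes) and 3.73 (log2 1.90, 3210 genes). After division by the all-gene median, the members stood at 1.01 and 0.985 of it. With peaks under 1 kb apart merged the medians of the members were 2.91 and 15.1. Merging joined the TSS peak of FDPS upon shRNA7 (283 tags) to its gene-body peak (1101 tags). It also joined the TSS peak of HMGCS1 to an intronic gene-body peak upon both hairpins. The merged values thus include gene-body tags, and no merged median over all genes is given beside them. With the TSSs of all transcripts the median for shRNA7 was 6.33. Tags per kb of peak gave smaller ratios, 1.29 and 1.60 for the members and 1.33 and 1.55 for all genes.

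At least 2-fold more tags were found at 1 of the 2 genes upon shRNA5, where 56.8% of all genes passed that fold, and at 2 of 2 upon shRNA7, where 89.5% did. At least 2-fold fewer were found at 0 of 2 in both, with 0.118% and 0.156% of genes. The other 6 genes, which had no TSS peak with the control shRNA, have no ratio. HMGCS1 lay below the median of all genes and FDPS above it, upon both hairpins.

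**Figure D3:**
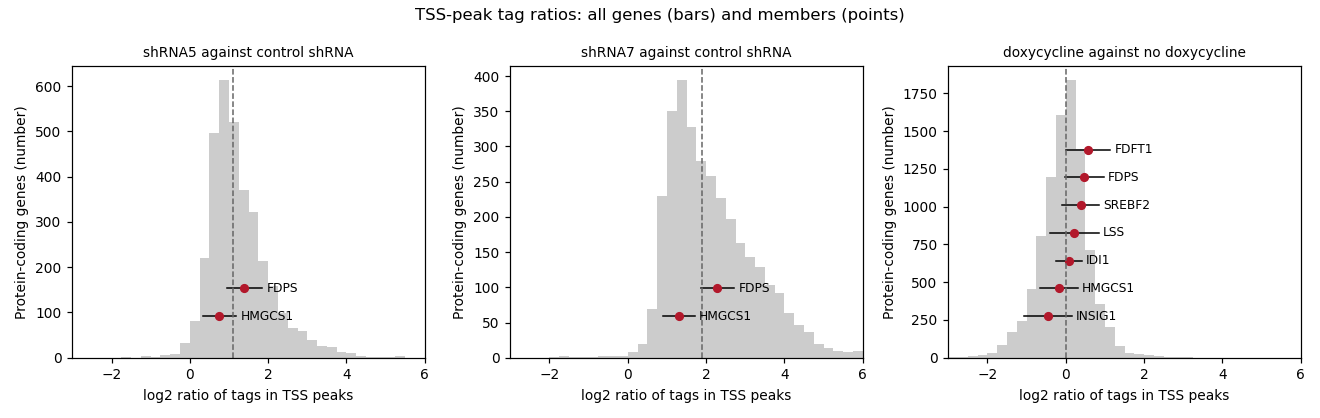
Distribution over all genes (grey bars, number of genes) of the log2 ratio of TSS-peak tags in 3 comparisons, with the members as points with 95% counting intervals and the median of all genes as a dashed line. HMGCS1 lies below and FDPS above the dashed line in both hairpin panels, and the 7 members with doxycycline lie between ratios of 0.732 and 1.49.

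Doxycycline was compared with no doxycycline to ask the same of RECQL5 overproduction. The 7 genes with TSS peaks in both lists had a median ratio of 1.16, from 0.732 (INSIG1) to 1.49 (FDFT1), and all genes a median of 1.00 (log2 0.00, 9314 genes). Per kb of peak the medians were 1.08 and 1.14. At least 2-fold more tags were found at 0 of the 7 (4.04% of genes) and at least 2-fold fewer at 0 of 7 (6.73%). Only the interval of FDFT1 was clear of 1, at its lower bound of 1.01. All 8 TSS peaks of the members without doxycycline overlapped a peak with doxycycline, against 74.5% of all TSS peaks in that list.

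Gene-body peaks over the 8 genes numbered 3 with the control shRNA, 10 upon shRNA5 and 13 upon shRNA7. The ratio was 3.33 upon shRNA5 (0.858 to 18.8) and 4.33 upon shRNA7 (1.19 to 23.7), beside 5.42 and 7.79 over all genes. These intervals count each called peak as independent, which neighbouring peaks in a gene are not, so they test no difference. Their tags summed to 387, 1397 and 3995. More gene-body peaks than with the control shRNA were found at 4 of 8 genes upon shRNA5 (HMGCS1, IDI1, LSS and SREBF2) and at 7 of 8 upon shRNA7 (all but FDPS), and fewer at 0 of 8 in both. Over all protein-coding genes, 29.0% had more and 2.0% fewer upon shRNA5, and 37.4% had more and 3.69% fewer upon shRNA7. Among the 12166 genes with a TSS peak somewhere, 42.8% and 3.17% did upon shRNA5, and 53.8% and 5.87% upon shRNA7. With the FDR held to 5%, the gene-body peaks of the members upon shRNA7 fell from 13 to 8. More than with the control shRNA were then found at 5 of the 8 genes.

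The count in the hairpin arm depended on how many peaks each list was allowed. With only the 5287 highest-scoring peaks of each list, a choice made after seeing the data, the members had 2 gene-body peaks upon shRNA5 and 4 upon shRNA7 beside 3 with the control shRNA. More were then found at 0 and 1 of the 8 genes.

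Without doxycycline the 8 genes had 26 gene-body peaks and with it 10, a ratio of 0.385 (0.166 to 0.824), beside 0.736 over all genes. That interval counts peaks as independent too, although SREBF2 had 11 of the 26 and IDI1 had 7. Merging of peaks under 1 kb apart reduced the 26 to 15 and the 10 to 7. Fewer peaks were found at 6 of 8 genes (INSIG1, IDI1, FDFT1, FDPS, LSS and SREBF2) and more at 1 (HMGCS1). Fewer were found at 29.1% of all genes and at 40.6% of those with a TSS peak somewhere, and more at 9.21% and 14.1%. The tags in these peaks fell less far, from 340 to 259 (0.762 times), since the peaks without doxycycline were small, with a median of 10.5 tags against 20.5. Of the 26, 24 had a significance score (the −log10 of the caller's p-value, times 10) under 100, as had 7 of the 10. With peaks of a score of at least 100 alone, there were 2 without and 3 with doxycycline, a ratio of 1.5 in the other direction.

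**Figure D4:**
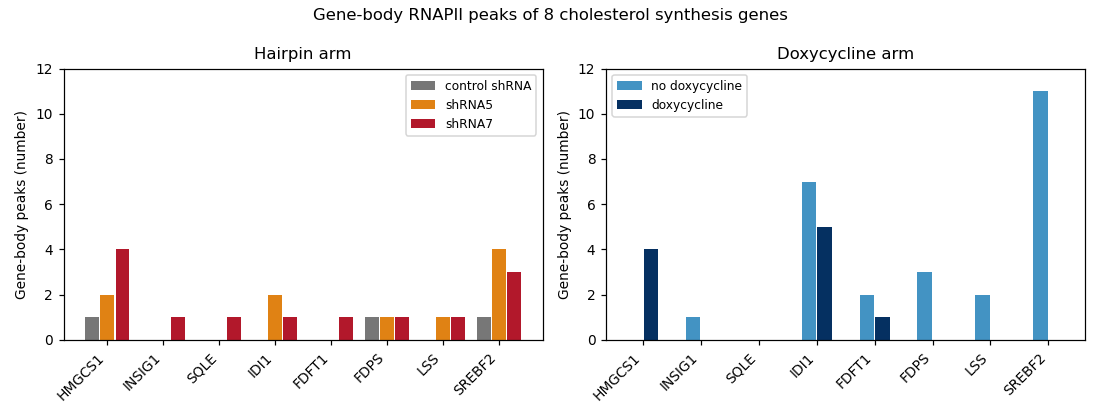
Number of gene-body peaks (y axis) of each gene (x axis) by list, in the hairpin arm (left) and the doxycycline arm (right); each bar is 1 library. SREBF2 has 11 peaks and IDI1 has 7 without doxycycline, while HMGCS1 has 4 with doxycycline and none without.

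Gene-body peaks lay in both the inner and the 3′ parts of the genes. Their summits were at 80% of the gene length or further for 2 of 3 with the control shRNA, 5 of 10 upon shRNA5 and 6 of 13 upon shRNA7, and for 9 of 26 without and 1 of 10 with doxycycline. Past the gene end itself lay 2, 1, 4, 1 and 0. In introns lay 1, 7, 9, 17 and 8, and in exons 0, 2, 0, 8 and 2. The peaks of the hairpin arm were also longer, with medians of 2230, 2226 and 3157 bp against 530 and 652 bp, but the arms differ in cells and in background library, so these values are only set side by side.

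All 3 gene-body peaks with the control shRNA (at HMGCS1, FDPS and SREBF2) overlapped a peak upon shRNA5 and one upon shRNA7. Of the 10 upon shRNA5, 9 (90.0%) overlapped a peak upon shRNA7, and of the 13 upon shRNA7, 7 (53.8%) overlapped one upon shRNA5. Over all genes the shares were 82.0% and 44.5%. In the doxycycline arm 5 of 26 (19.2%) overlapped a peak with the drug and 5 of 10 (50.0%) one without it, against 38.0% and 48.9% over all genes. The 5 with doxycycline that overlapped were all over IDI1.

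Among 14 other synthesis genes of the pathway a TSS peak was present at 3 with the control shRNA, 8 upon shRNA5, 14 upon shRNA7, 12 without and 12 with doxycycline. Of all protein-coding genes, 17.3%, 44.6%, 53.0%, 57.1% and 48.4% had one. ACAT2, which makes the acetoacetyl-CoA at the start of the route, and CYP51A1, the lanosterol demethylase, had one in all 5 lists. ACAT2 had 158, 1177 and 1691 tags in the hairpin lists. Its ratio upon shRNA7 was 10.7 (9.09 to 12.7), with 86.0% of genes lower. The ACAT2 peaks also covered the TSS of SOD2, and only 14.0% of the one upon shRNA7 lay in the widened ACAT2 span. CYP51A1 had 77, 141 and 206 tags and a ratio of 2.68 (2.05 to 3.52), below the median of all genes.

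Of these 14, TSS tags were at least 2-fold higher at 2 of 3 upon shRNA5 (56.8% of all genes) and 3 of 3 upon shRNA7 (89.5%). With doxycycline this held for 0 of 11 (4.04% of all genes), and 0 of 11 were at least 2-fold lower (6.73%). More gene-body peaks than with the control shRNA were found at 3 upon shRNA5 and 9 upon shRNA7, beside 29.0% and 37.4% of all protein-coding genes. Fewer were found at 0 and 2, beside 2.0% and 3.69%. With doxycycline 2 had more (9.21% of all protein-coding genes) and 5 fewer (29.1%). DHCR7, which makes the last reduction in the sterol ring, shared with SQLE the pattern of TSS peaks upon shRNA7 only. Its 75 tags lay in 2 peaks, of 34 and 41 tags, with FDRs of 17.7% and 13%. The peak of 41 tags also touched the TSS window of NADSYN1, with 49.5% of its length in the widened DHCR7 span.

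Among 6 sterol regulators a TSS peak was present at 3, 5, 4, 5 and 4, beside 17.3%, 44.6%, 53.0%, 57.1% and 48.4% of all protein-coding genes. SREBF1, the paralogue of SREBF2 that mainly drives fatty acid synthesis, had 72, 158 and 1462 tags in the hairpin lists and 119 and 77 in the doxycycline lists. Of the 1462, 817 were in a peak of 11589 bp with 14.8% of its length in the widened gene, reaching TOM1L2. The other 645 were in a peak over an internal TSS, with its summit at 90.4% of the gene length, reaching RAI1. Peaks overlapping it with the control shRNA and upon shRNA5, of 78 and 77 tags, were taken as gene-body peaks. They are not in the 72 and 158, so these values cover unlike sites. SCAP had a TSS peak without doxycycline only (19 tags), and INSIG2, the paralogue of INSIG1, upon shRNA5 only (69 tags). TSS tags at least 2-fold higher were found at 2 of 3 upon shRNA5 (56.8% of all genes) and 2 of 3 upon shRNA7 (89.5%). More gene-body peaks were found at 3 and 3 of the 6 (29.0% and 37.4% of all protein-coding genes), and fewer at 0 and 1 (2.0% and 3.69%). With doxycycline 0 had more (9.21%) and 3 fewer (29.1%).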

How the data were processed

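The authors sequenced RNAPII and IgG ChIP libraries of HEK293 cells. The submitters' processing notes name CASAVA 1.8, Bowtie 0.12.7, MACS 1.4.2 and the hg19 build (GRCh37), and peaks were called by library. The deposited lists give for each peak the count of tags, which the authors did not normalise, its length and summit, a score (the −log10 p-value times 10), a ratio (fold enrichment over background) and an FDR in percent. Library totals are not in the lists, so tags were not scaled by depth, although the study's methods describe alike read numbers within an arm. The hairpin lists used here are shorter than the methods describe. Of 9 samples, the 5 RNAPII ones have a list.

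Genes were taken from GENCODE 44 lifted to GRCh37. Peaks were assigned by at least 1 bp of overlap, and a peak may be assigned to several genes. Tags of all TSS peaks of a gene were summed, and ratios compare lists within an arm, with exact 95% Clopper-Pearson intervals turned into odds. A call was a 2-fold difference. The members and gene lists were chosen with earlier results of these data known. Named genes were the 8 members, 14 other synthesis genes, 6 sterol regulators, genes sharing a peak with a member, and the 2 genes nearest in TSS tags to members with a TSS peak in all lists. RECQL5, and the lncRNA genes that overlap a peak, were added after their values were seen. Some of these genes are counted in their lists but not reported here by name. Peak assignment was tested on simulated data. Analysis used Python 3.11.15, numpy 2.4.6, pandas 2.3.3, scipy 1.17.1 and matplotlib 3.10.9.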

Additional observations from a re-analysis of the deposited data

How the results depend on the processing

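With 1 library in each group, no replicate could be left out. No paired analysis was possible because there was 1 library for every group. Over 22 results and 12 alternatives, 225 values were recomputed, of which 181 stayed within the limits set, 41 moved and 3 reversed; where a value moved, the cause was not tested unless the setting itself removes or joins peaks. All 22 results held with the TSS of the longest transcript only, a TSS window of 1 kb, gene spans not widened, and the summit rule. With a score of at least 100, members with a TSS peak fell to 1 with the control shRNA, gene-body peaks to 1, 6, 8, 2 and 3 (control shRNA, shRNA5, shRNA7, no doxycycline, doxycycline), the median TSS ratios became 1.69 (shRNA5) and 2.47 (shRNA7), and with doxycycline the fold in gene-body peaks reversed to 1.5, with more at 2 genes and fewer at 1. With an FDR of at most 5%, gene-body peaks upon shRNA7 fell to 8. With a fold enrichment of at least 10, gene-body peaks were 1, 0, 4 and 3 (control shRNA, shRNA5, shRNA7, doxycycline), more were found at 0, 3 and 0 genes upon shRNA5, shRNA7 and doxycycline, fewer at 1 upon shRNA5, and the doxycycline fold was 0.15. With peaks under 1 kb apart merged, gene-body peaks were 6 upon shRNA5 and 15 without doxycycline, fewer were found at 1 gene upon shRNA7 and more at 2 with doxycycline. The median TSS ratios were then 2.91 and 15.1, with tags of gene-body peaks that merging had joined to TSS peaks. The TSSs of all transcripts gave a median ratio of 6.33 upon shRNA7. Tags per kb of peak gave 1.29 and 1.60. Division by the all-gene median gave 1.01 upon shRNA5 and reversed the ratio to 0.985 upon shRNA7. With each list cut to the shortest of its arm by score, chosen after seeing the data, members with a TSS peak were 4 and 3 upon shRNA5 and shRNA7, gene-body peaks 2, 4 and 16 (shRNA5, shRNA7, no doxycycline), the shRNA5 fold in gene-body peaks reversed to 0.667, the shRNA7 median TSS ratio was 4.88, more gene-body peaks were found at 0, 1 and 2 genes (shRNA5, shRNA7, doxycycline), and fewer at 1 upon shRNA5 and 3 with doxycycline. The lowest tag number of a list, 35 with the control shRNA, limits what a missing peak can say.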
